A study of Mus musculus with 4 samples.

Results

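Alternatively activated macrophages are the state that macrophages take up under the type 2 cytokines interleukin-4 and interleukin-13, and 10 genes widely used to recognise it were followed here in mouse peritoneum. They were taken from a fixed list of symbols, and all probe sets carrying those symbols were read. The 10 genes, of 18193 named genes on the array, were measured by 11 probe sets. Each gene had 1 probe set of its own, and 1 further probe set was shared by Chil3 and Chil4. The genes are Chil3, Chil4 and Retnla (secreted proteins), Arg1 (an enzyme of arginine breakdown), Mrc1, Cd163, Stab1 and Folr2 (endocytic and binding receptors) and Clec10a and Mgl2 (galactose-type lectins). At least 1 array called 9 of the 10 Present, the detection call that comes with each deposited signal, and all arrays called 8 of them Present. Over all genes, 12754 were Present on at least 1 array.

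In textbook accounts, interleukin-4 or interleukin-13 binds a receptor that contains the chain encoded by Il4ra, and the transcription factor STAT6 then switches on genes such as Arg1, Retnla, Chil3 and Mrc1. Classically activated macrophages, made by interferon-gamma and microbial products, instead transcribe Nos2 and inflammatory cytokines. Several of the 10 genes also mark resident tissue macrophages (Mrc1, Folr2, Cd163, Stab1, Clec10a) without type 2 cytokines, so the list holds markers of residence as well as markers of activation.

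The tissue was the parietal peritoneum of C57BL/6J mice, which were either wild type or carried a brain natriuretic peptide transgene under the serum amyloid P promoter (SAP-BNP-Tg, written BNP-Tg mice below). Mice were injected intraperitoneally with the antiseptic chlorhexidine gluconate, an irritant of the peritoneum, as a 0.1% solution whose solvent was 15% ethanol and 85% PBS. Each injection was 0.01 mL per gram body weight, with 3 a week for 21 days. Control mice, called vehicle mice here, received ethanol and PBS, with no concentration, volume or schedule given in the labels. There were thus 4 groups: wild type with vehicle, wild type with chlorhexidine, transgenic with vehicle and transgenic with chlorhexidine. Each was represented by 1 Affymetrix array. How many mice were behind an array, and their age and sex, is not in the labels used here. The serum amyloid P promoter is known as a liver promoter, and Nppb, the gene of the hormone, was Absent on all 4 arrays (signals 6.91, 20.1, 9.04 and 4.04 in the order just given), so the arrays hold no check of the genotype labels.

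With 1 array per group no difference has a replicate check, and no p-value is given. Differences are on the log2 scale of signals brought to the same trimmed mean on each array. To be called higher or lower, a gene needed a difference of at least 1 (2-fold), a brighter array that called it Present, and a signal there no dimmer than the 25th percentile of Present signals on that array (34.5 to 35.4 in scaled units). A fold is written "at least" if its dimmer signal had no Present call. The arrays called between 50.5% and 55.1% of probe sets Present. The vehicle array of the wild type differed from the others in its controls, with an 18S rRNA signal of 898.5 against 82.8 to 117 on the others and a beta-actin 3-prime to middle ratio of 5.81 against 2.23 to 2.84. Wild-type results are therefore also given with the BNP-Tg vehicle array in its place. Disagreement between probe sets of the same gene was taken over 4431 genes that have several probe sets Present on all 4 arrays. In the chlorhexidine difference its SD was 0.454 in wild type and 0.294 in BNP-Tg mice. This measures probe disagreement and not the spread between mice, and it leaves out probe sets that lack a Present call on any array.

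The sequences just before the start of the secreted-protein genes are shown first, because these genes went furthest apart in the values below (Retnla lower, Chil3 higher, Chil4 not detected) although all are classed as interleukin-4 targets. They are the 250 bases before the start in RefSeq (build GRCm38.p6), 5′ to 3′ on the gene's strand. Retnla is at chr16:48842359-48842608 (plus strand), Chil3 at chr3:106167565-106167814 (minus strand) and Chil4 at chr3:106219480-106219729 (minus strand). Capitals mark every match to 4 short motifs searched on both strands, chosen after the sequences had been seen.
Retnla: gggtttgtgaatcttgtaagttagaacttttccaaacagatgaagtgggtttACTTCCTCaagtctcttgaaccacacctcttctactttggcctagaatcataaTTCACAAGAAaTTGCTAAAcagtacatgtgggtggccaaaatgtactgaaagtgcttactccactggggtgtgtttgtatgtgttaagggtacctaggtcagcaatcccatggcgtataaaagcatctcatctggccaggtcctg
Chil3: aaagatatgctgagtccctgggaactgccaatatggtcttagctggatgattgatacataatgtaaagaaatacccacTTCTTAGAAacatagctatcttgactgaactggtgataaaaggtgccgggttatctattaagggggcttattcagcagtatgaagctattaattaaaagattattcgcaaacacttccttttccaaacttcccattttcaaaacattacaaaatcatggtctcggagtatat
Chil4: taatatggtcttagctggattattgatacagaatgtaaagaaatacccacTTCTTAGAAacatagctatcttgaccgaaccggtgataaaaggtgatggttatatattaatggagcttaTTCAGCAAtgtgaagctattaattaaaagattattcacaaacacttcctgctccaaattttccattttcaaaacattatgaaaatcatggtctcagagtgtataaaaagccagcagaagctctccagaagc
The Retnla window held TTCACAAGAA, 145 to 136 bases before the start, which matches the STAT6-type palindrome TTCNNNNGAA. Of 32851 windows of the same length in the RefSeq table, 5.85% hold that motif. After 1 further base came TTGCTAAA (134 to 127 bases before the start), a match to the C/EBP-type motif TTGCNNAA (9.56% of windows). Upstream of both stood ACTTCCTC (198 to 191 bases before), the reverse complement of the PU.1-type motif GAGGAAGT (2.44%). No 2 of these matches overlap. Chil3 and Chil4 held no TTCNNNNGAA in this window. Both held TTCTTAGAA, a match to the STAT-type motif with 3 bases between its arms, TTCNNNGAA (7.02% of windows), at 172 to 164 bases before the Chil3 start and 200 to 192 bases before the Chil4 start. Chil4 also held TTCAGCAA, the C/EBP-type motif on the other strand, 131 to 124 bases before its start. The 2 chitinase-like windows were close copies, with 201 identical positions in 222 aligned columns (90.5%), 19 mismatches and 2 gap columns. Promoter entries were matched for 8 of the 10 genes, and of those 8 the STAT6-type motif was found in 1, the STAT-type motif with 3 bases between in 2, the PU.1-type in 1 and the C/EBP-type in 2. A match is a stretch of letters and does not show that a factor binds there.

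With chlorhexidine the 10 genes went in different directions. In whole tissue, more (or fewer) cells of a type and more (or less) RNA per cell cannot be told apart, and that holds for every value here. Medians and summed signals of gene lists are over the genes Present on at least 1 array, and a sum follows its brightest genes. In wild-type peritoneum 5 were called higher (Chil3, Arg1, Folr2, Mrc1 and Stab1), where 8.22% of all genes Present on at least 1 array were, and 2 were called lower (Retnla and Mgl2), where 4.93% of all genes were. In BNP-Tg peritoneum 3 were called higher (Chil3, Arg1 and Folr2), against 3.81% of all genes, and 1 was called lower (Retnla), against 1.4%. In both genotypes 3 were higher (3.03% of all genes) and 1 was lower (0.823%). The background split depended on the scaling. In wild type 6.06% of all genes were higher and 8.41% lower under median centring, and 12.4% and 2.49% under the deposited scaling, which gave 2.58% and 2.51% in BNP-Tg mice. The counts of the 10 genes were the same under both. The median difference of the 10 genes was 0.69 in wild type and 0.83 in BNP-Tg mice, beside -0.00 and 0.00 for all genes. These medians average over genes that lie between -2.37 and 4.23 in wild type and between -1.70 and 4.25 in BNP-Tg mice, and the Chil4 values in them come from a gene that was not detected. Over the 9 detected genes the medians were 1.22 in wild type and 0.76 in BNP-Tg mice, so the genotypes stood in the opposite order. The all-gene medians are likewise over genes Present on at least 1 array. The order of the differences was nearly the same in both genotypes, from Chil3 at the top through Arg1, Folr2, Mrc1 and Stab1, then Cd163 and Clec10a, to Mgl2 and Retnla.

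**Figure D1:**
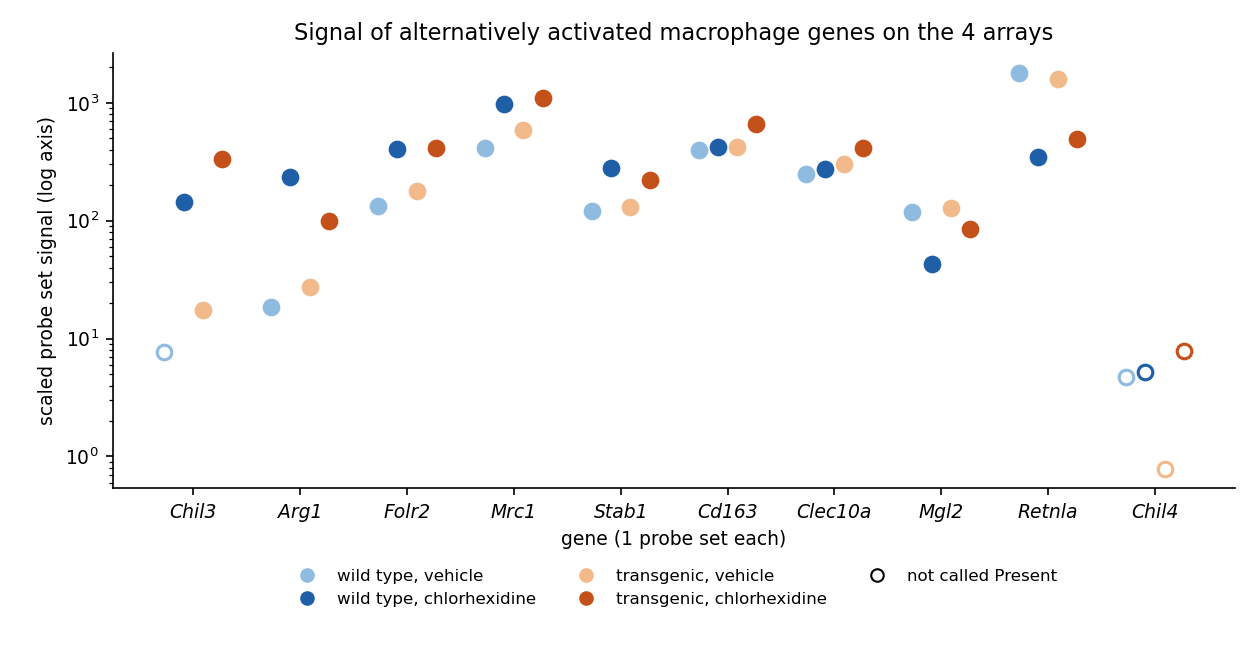
Scaled probe set signal (log axis) of each of the 10 genes, 1 probe set each, on the 4 arrays, with open circles for signals not called Present. Chil3 and Arg1 lie higher on both chlorhexidine arrays than on both vehicle arrays, Retnla and Mgl2 lie lower, Cd163 and Clec10a change little in wild type, and Chil4 is open on all 4 arrays.

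Chil3 encodes Ym1, a chitinase-like protein without chitinase activity that macrophages secrete, and which is also made by maturing neutrophils and monocytes. Its own probe set read 7.73 (Absent) with vehicle and 145 with chlorhexidine in wild type, and 17.4 and 332 in BNP-Tg peritoneum. Both chlorhexidine signals were above both vehicle signals, and the Chil3 signal was higher by at least 18.8-fold in wild type and by 19.1-fold in BNP-Tg mice. Chil3 ranked 30th of 12754 genes from the top in wild type and 16th in BNP-Tg mice. Set against the BNP-Tg vehicle array, the wild-type difference was 3.06 instead of 4.23. With a pseudocount of 32 added to every signal, the Chil3 differences fell to 2.15 in wild type and from 4.25 to 2.88 in BNP-Tg mice, both still called higher. The probe set shared by Chil3 and Chil4 read 2.46 (Absent) and 121 in wild type and 22.5 and 276 in BNP-Tg mice. That is at least 41.2-fold and 12.3-fold higher, so both probe sets gave the same direction in both genotypes.

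Chil4 encodes the close relative Ym2. Its own probe set was Absent on every array, with signals of 4.68 and 5.22 in wild type and 0.790 and 7.78 in BNP-Tg mice (vehicle and chlorhexidine), so no fold is given. Since the shared probe set can read either transcript, its signal cannot be assigned to one of the genes, but the probe set particular to Chil4 did not detect that gene. Among the other chitinase-like and resistin-like genes, 8 were measured, of which Chit1, Chia1 and Retnlb were Present on no array. Chil1 was Present only with chlorhexidine in BNP-Tg mice, at 47.2.

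Monocyte genes and some neutrophil genes were higher beside Chil3. Of 12 monocyte genes measured, 11 were Present on at least 1 array, 8 were higher in wild type and 0 lower, and in BNP-Tg mice 7 were higher and 1 lower (Nr4a1), with medians of 1.49 and 1.02. The wild-type median was 1.16 against the BNP-Tg vehicle array, with 6 higher and 1 lower (Nr4a1 again). Their summed signal was 3689 and 10758 in wild type and 5439 and 9392 in BNP-Tg mice. Plac8, a gene of inflammatory monocytes, read 440.05 and 2656 in wild type and 615 and 2379 in BNP-Tg mice. Of 15 neutrophil genes measured, 9 were Present on at least 1 array, 4 were called higher with chlorhexidine in wild type and 5 in BNP-Tg mice, and none was lower. Their summed signal was 492 with vehicle and 928 with chlorhexidine in wild type, and 728 and 3049 in BNP-Tg mice. S100a8, a calcium-binding protein abundant in neutrophils and monocytes, read 28.2 and 257 in wild type and 108 and 1066 in BNP-Tg mice. Cxcr2, Elane and Mpo, which define neutrophils and their precursors, were Absent on all 4 arrays. With the BNP-Tg vehicle array as control, the wild-type median of the neutrophil genes was 0.38, with 2 higher, in place of 1.81 with 4 higher. The part of monocytes and neutrophils in the Chil3 signal was not tested.

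Retnla encodes RELM-alpha (FIZZ1), a secreted protein induced by interleukin-4 in macrophages and also made in adipose tissue. Its signal was 1803 with vehicle and 349 with chlorhexidine in wild type, and 1601 and 493 in BNP-Tg mice, Present on all arrays. Both chlorhexidine signals were below both vehicle signals. The Retnla difference was 5.17-fold downwards in wild type and 3.25-fold downwards in BNP-Tg peritoneum, and Retnla ranked 108th of 12754 genes from the lowest in wild type and 154th in BNP-Tg mice. With the BNP-Tg vehicle array the wild-type difference was -2.20 instead of -2.37. Retnla therefore went opposite to Chil3 and Arg1, with which it shares its place in the type 2 programme.

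Some fat cell genes were also lower. Of 13 adipocyte genes measured, all Present on at least 1 array, 5 were lower in wild type and 2 in BNP-Tg mice, and none was higher, with medians of -0.76 and -0.51. Their summed signal was 32358 and 21351 in wild type and 30686 and 24707 in BNP-Tg mice. Adiponectin (Adipoq), a hormone of fat cells, read 3865 and 1409 in wild type and 3949 and 2434 in BNP-Tg mice, a 2.74-fold and a 1.62-fold difference. Retn, the resistin gene of fat cells and a relative of Retnla, read 1009 and 315 in wild type and 911 and 788 in BNP-Tg mice. These are a 3.21-fold and a 1.16-fold difference downwards. The adipocyte genes had a wild-type median of -1.08 against the BNP-Tg vehicle array, with 6 lower. Genes of 2 other cell types were lower too. Of 9 B cell genes Present on at least 1 array (12 measured), 8 were lower in wild type and 6 in BNP-Tg mice, and none was higher, with medians of -3.71 and -2.26 (-2.34 in wild type against the BNP-Tg vehicle array, with 6 lower). Their summed signal was 11698 and 890 in wild type and 6971 and 1562 in BNP-Tg mice. Pax5, which defines B cells, was Absent on all 4 arrays, but the B cell gene Ms4a1 was Present on both vehicle arrays. Ms4a1 read 174 and 6.99 (Absent) in wild type and 73.5 and 13.2 (Absent) in BNP-Tg mice. Jchain, which encodes the joining chain of secreted antibodies, read 3100 and 73.9 in wild type and 1382 and 149 in BNP-Tg mice. Of 16 mesothelial genes measured, all Present on at least 1 array, 7 were lower in wild type, and in BNP-Tg mice 1 was higher (Wt1) and 0 lower, with medians of -0.82 and -0.03. In wild type set against the BNP-Tg vehicle array, 5 were lower and 1 higher (Wt1). The summed mesothelial signal was 6066 and 5853 in wild type and 5528 and 5227 in BNP-Tg mice. The part of fat, B or mesothelial cells in the Retnla signal was not tested.

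Arg1 encodes arginase 1, which splits arginine into ornithine and urea and competes with nitric oxide synthase for it. Its signal was 18.6 with vehicle and 233 with chlorhexidine in wild type, and 27.3 and 99.1 in BNP-Tg mice. All 4 were called Present, but both vehicle signals lay below the 25th percentile of Present signals, so the folds are against a dim base. With chlorhexidine the Arg1 signal was 12.5 times that with vehicle in wild type and 3.63 times in BNP-Tg peritoneum, and both chlorhexidine signals lay above both vehicle signals. With the same pseudocount of 32, which damps dim values, the differences fell from 3.65 and 1.86 to 2.39 and 1.15 and Arg1 was still called higher in both genotypes. With the BNP-Tg vehicle array the wild-type difference was 3.10.

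Few of the genes around Arg1 in arginine and polyamine metabolism passed the rule, and those that did went in both directions. Of 19 measured, 16 were Present on at least 1 array. In wild type 2 were higher and 2 lower (8.22% and 4.93% of all genes were). In BNP-Tg mice 1 was higher and 1 lower (3.81% and 1.4%). In wild type set against the BNP-Tg vehicle array, 4 were higher and 3 lower (7.23% and 3.57% of all genes), and the median turned from 0.39 to -0.18. With so few genes, these counts are not read as a result about the pathway. Slc7a1, a cationic amino acid transporter that imports arginine, read 99.4 and 267 in wild type and 103 and 203 in BNP-Tg mice (2.69-fold and 1.98-fold). Aldh18a1, which makes the proline precursor from glutamate, was 2.80-fold and 2.63-fold higher, and its probe sets agreed in direction. Prodh, which breaks proline down, was 2.47-fold and 2.11-fold lower. Arg2, the mitochondrial arginase, was Present on no array (signals 4.92 and 2.26 in wild type, 0.702 and 11.1 in BNP-Tg mice). Nos2, the inducible nitric oxide synthase that marks classical activation, was Absent on all 4 arrays, at 0.819 and 2.76 in wild type and 4.56 and 9.40 in BNP-Tg mice.

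Mrc1 encodes the mannose receptor CD206, an endocytic lectin of macrophages and also of lymphatic and liver endothelium. Its signal was 416 with vehicle and 976 with chlorhexidine in wild type, and 586 and 1096 in BNP-Tg mice. Both chlorhexidine signals were above both vehicle signals, a 2.34-fold and a 1.87-fold difference. Only the wild-type one passed the rule of size. With the vehicle arrays exchanged this turned round: the wild-type difference was 0.74 and did not pass, and the BNP-Tg difference was 1.40 and did.

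Folr2 encodes the folate receptor beta of tissue macrophages. It read 134 and 402 in wild type and 178 and 414 in BNP-Tg mice, so it was 3.00-fold and 2.32-fold higher. The 2 chlorhexidine signals were close to each other and lay above both vehicle signals. Against the BNP-Tg vehicle array the wild-type difference was 1.17.

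Stab1 encodes stabilin-1, a scavenger receptor of macrophages and of lymphatic and sinusoidal endothelium. It read 120.1 and 279.6 in wild type and 131 and 223 in BNP-Tg mice, a 2.33-fold and a 1.70-fold difference, of which the wild-type one passed the rule. Against the BNP-Tg vehicle array the wild-type difference was 1.09. Lymphatic endothelium also expresses Mrc1 and Stab1. Of 9 lymphatic endothelial genes measured, all Present on at least 1 array, 3 were higher in wild type and 0 in BNP-Tg mice, with medians of 0.85 and 0.44 (0.63 in wild type against the BNP-Tg vehicle array, with 2 higher). Their summed signal was 1149.9 and 1993 in wild type and 1231 and 1893 in BNP-Tg mice, while Prox1, which defines these cells, was Present on 1 array only (signals 6.56 to 11.8). Their part in the Mrc1 and Stab1 signals was not tested.

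Cd163 encodes the receptor that clears haemoglobin bound to haptoglobin, and is a marker of resident and glucocorticoid-treated macrophages. Its signal was 398 with vehicle and 418 with chlorhexidine in wild type, and 422 and 665 in BNP-Tg mice. The BNP-Tg chlorhexidine signal lay above the other 3, which were close together. The difference was 0.07 in wild type, which turned to -0.11 under median centring and to -0.01 against the BNP-Tg vehicle array, and 0.66 (1.58-fold) in BNP-Tg mice. Neither passed the rule.

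Clec10a (MGL1) and Mgl2 encode the paired galactose-type lectins of mouse macrophages and dendritic cells, and both genes lie on chromosome 11. Clec10a read 248 and 276 in wild type and 302 and 411 in BNP-Tg mice, with differences of 0.15 and 0.44, neither past the rule. The wild-type value turned to -0.03 under median centring and to -0.13 against the BNP-Tg vehicle array. Mgl2 read 119 and 43.0 in wild type and 129 and 85.8 in BNP-Tg mice. Both chlorhexidine signals lay below both vehicle signals, and Mgl2 was 2.78-fold lower in wild type, past the rule, with a difference of -0.59 in BNP-Tg mice. The paired lectins therefore differed in wild-type peritoneum, one near its vehicle level and the other lower. Against the BNP-Tg vehicle array the wild-type Mgl2 difference was -1.58.

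Of 14 dendritic cell genes measured beside Mgl2, 10 were Present on at least 1 array, 1 was higher in wild type (Fscn1) and 1 lower in BNP-Tg mice (Itgax), with medians of -0.19 and -0.29. Exchanging the vehicle array gave a wild-type median of -0.44, with 1 higher and 1 lower (Itgae). Their summed signal was 608 and 1199 in wild type and 632 and 730.2 in BNP-Tg mice, of which Fscn1 alone gave 222 and 903, then 236 and 431. Itgax, which encodes the integrin CD11c, read 96.9 and 54.4 in wild type and 74.9 and 31.4 in BNP-Tg mice. Cd209a, the lectin of monocyte-derived dendritic cells, read 47.8 and 47.5, then 63.2 and 41.8. Their part in the Mgl2 signal was not tested.

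**Figure D2:**
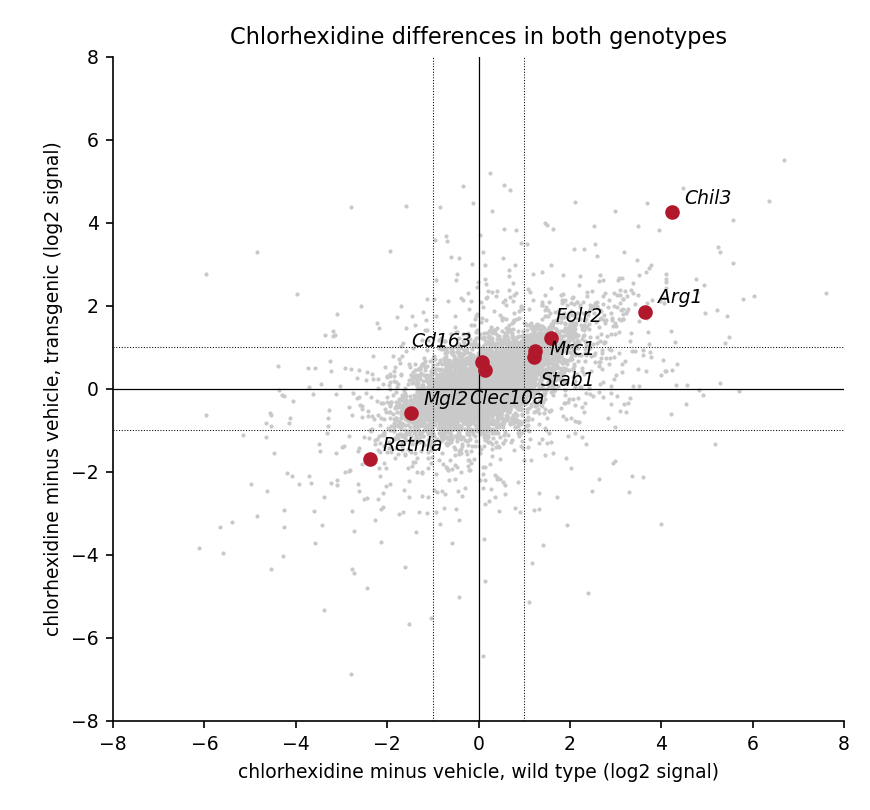
Chlorhexidine minus vehicle difference (log2 signal) in wild type against that in BNP-Tg mice for the 12754 genes Present on at least 1 array (grey) and the 9 detected genes of the list (red), with dotted lines at 2-fold. Chil3 and Arg1 stand at the upper right, Retnla at the lower left, and Cd163 and Clec10a near the centre.

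The changes were next set beside those of macrophages in general. Of 22 genes expressed by macrophages regardless of activation state, such as Cd68, Csf1r and Tyrobp, all were Present on at least 1 array, 12 were higher in wild type and 8 in BNP-Tg mice, and none was lower. Their median difference was 1.26 in wild type (range 0.28 to 2.19) and 0.91 in BNP-Tg mice (0.38 to 1.37), and their summed signal was 9887 and 19383 in wild type and 10061 and 17086 in BNP-Tg mice. The wild-type median was 1.18 against the BNP-Tg vehicle array, with 14 higher.

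Measured from that median, Chil3 was higher by 2.97 in wild type and 3.35 in BNP-Tg mice, and all 22 general macrophage genes lay below it in both genotypes. Arg1 was higher by 2.39 and 0.96, again with all 22 below it. Mrc1 and Stab1 lay close to the median, at -0.03 and -0.04 in wild type and -0.00 and -0.14 in BNP-Tg mice. Folr2 was at 0.33 and 0.31, inside the range, with 13 of the 22 genes below it in wild type and 18 in BNP-Tg mice. In BNP-Tg mice set against the wild-type vehicle array, Folr2 was at 0.55 with 20 below it. Cd163 was lower by the relative values -1.19 and -0.25, and Clec10a by -1.11 and -0.46. In wild type none of the 22 genes lay below Cd163 or Clec10a, and in BNP-Tg mice 4 and 2 of them did. Mgl2 (-2.73 and -1.49) and Retnla (-3.63 and -2.61) lay below all 22 in both genotypes. With the BNP-Tg vehicle array in both terms, the relative wild-type values were 1.88 for Chil3 and 1.92 for Arg1, still above all 22, while Mrc1 was at -0.44, Folr2 at -0.01, Cd163 at -1.19 and Clec10a at -1.31. In BNP-Tg mice Cd163 and Clec10a thus lay inside the range of the 22 genes, as did Stab1, which had 5 of them below it. With the wild-type vehicle array, 7 lay below Cd163 and Clec10a and 8 below Stab1 there, so a placing of Cd163 and Clec10a below the general macrophage genes holds for wild type only.

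**Figure D3:**
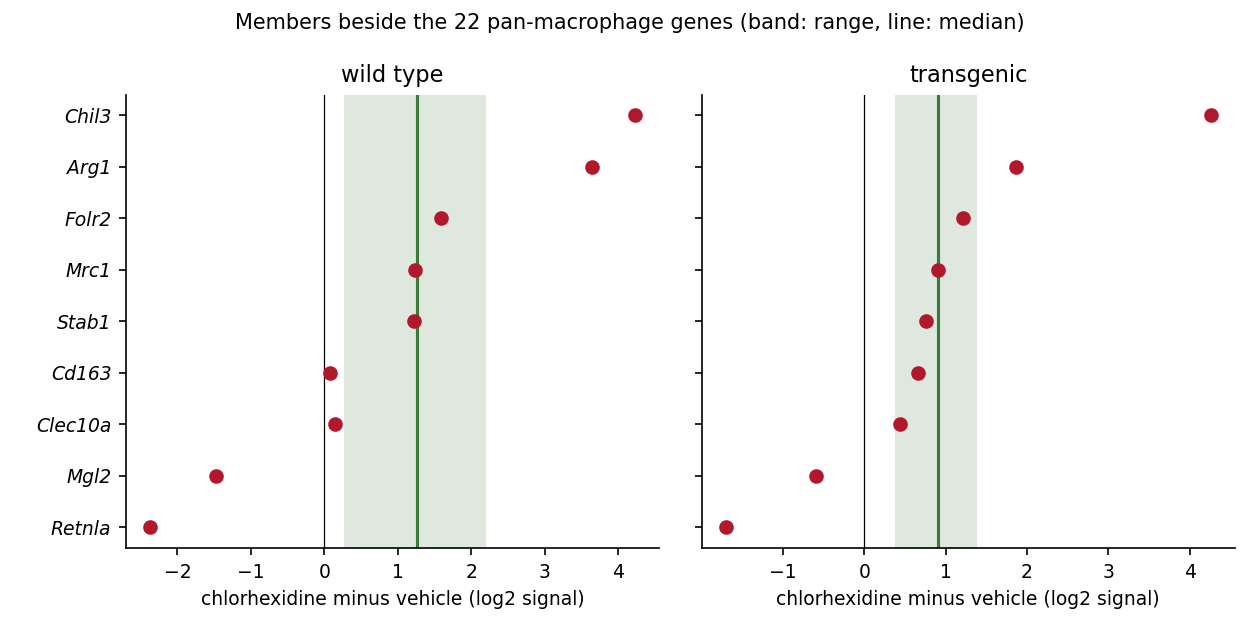
Chlorhexidine minus vehicle difference (log2 signal) of the 9 detected genes (points) in each genotype beside 22 general macrophage genes (band: lowest to highest, green line: median). Chil3 and Arg1 lie right of the band in both genotypes, Folr2, Mrc1 and Stab1 inside it, and Mgl2 and Retnla left of 0.

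Among the signals that induce this state, the cytokines themselves were at the edge of detection. Il4 was Present only in wild type with chlorhexidine (10.04, with 6.32, 9.83 and 8.99 on the other arrays, in the order wild-type vehicle, BNP-Tg vehicle and BNP-Tg chlorhexidine), and Il13 was Absent on all 4 arrays, at 0.526 to 2.02. Of the 21 genes of interleukin-4 and interleukin-13 signalling that were measured, 17 were Present on at least 1 array, 4 were higher in wild type and 3 in BNP-Tg mice, and none was lower, with medians of 0.45 and 0.10. Exchanging the vehicle array gave a wild-type median of 0.03, with 3 higher. The receptor chain Il4ra read 66.5 and 173 in wild type and 54.5 and 135 in BNP-Tg mice, 2.60-fold and 2.48-fold higher. Il13ra1, its partner in the receptor for both cytokines, read 50.0 and 171 in wild type and 41.5 and 156 in BNP-Tg mice, 3.41-fold and 3.76-fold higher. Il33, an alarm cytokine of stromal cells that stimulates type 2 immunity, was 4.08-fold and 3.66-fold higher. Stat6 itself did not pass the rule, at 263 and 319.5 in wild type and 289 and 299 in BNP-Tg mice. A second, dimmer Stat6 probe set read 76.7 and 133 in wild type (a difference of 0.80) and 106 and 116 in BNP-Tg mice (0.13). Another, dimmer Il4ra probe set, Absent on both vehicle arrays, read 21.2 and 77.8 in wild type (a difference of 1.88). In BNP-Tg mice it read 35.0 and 59.5 (0.77), short of 2-fold. The remaining Il4ra probe set was Absent on all 4 arrays. The other detected Il13ra1 probe sets gave 1.98 to 2.54 in wild type and 1.37 to 1.42 in BNP-Tg mice. Il13ra1 was thus higher in both genotypes, while for Il4ra in BNP-Tg mice the call rests on its brightest probe set. Neither probe set of Stat6, through which these receptor chains signal, passed in either genotype.

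Other genes that interleukin-4 induces in macrophages were divided too. Of 21 measured, 16 were Present on at least 1 array. In wild type 5 were higher and 1 lower, and in BNP-Tg mice 3 were higher and 2 lower, with medians of 0.06 and -0.01. Trem2, a lipid-binding receptor, was higher by at least 10.1-fold (wild type) and 5.21-fold (BNP-Tg), from signals of 13.6 and 19.7 (Absent) to 137 and 102. Mmp12, the macrophage elastase, went from 163 to 33.6 and from 199 to 22.1. Alox15, a lipoxygenase of resident peritoneal macrophages and eosinophils, was dim throughout. It read 20.3 with vehicle (Present) and 3.54 with chlorhexidine (Absent) in wild type. In BNP-Tg mice it read 19.7 (Marginal) and 3.13 (Absent), so the 2 vehicle signals were close. Eosinophils, a source of interleukin-4, gave little signal, since Epx, Prg2 and Ccr3 were Absent on all 4 arrays. Of 13 mast cell and basophil genes measured, 9 were Present on at least 1 array. Of these, 3 were higher in wild type (2 against the BNP-Tg vehicle array), 2 in BNP-Tg mice and 0 were lower. Of 15 type 2 lymphocyte genes measured, 6 were Present on at least 1 array. None passed the rule in either genotype, but 1 was higher in wild type against the BNP-Tg vehicle array.

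Genes of resident tissue macrophages were higher in part. Of 26 measured, 25 were Present on at least 1 array, 10 were higher in wild type and 5 in BNP-Tg mice, and none was lower, with medians of 0.58 and 0.67. The exchanged vehicle array left 4 higher in wild type, with a median of 0.46. Vsig4, the complement receptor of resident macrophages, read 17.9 and 73.8 in wild type and 32.3 and 148 in BNP-Tg mice. Ms4a7 was 3.35-fold and 2.44-fold higher. Among 28 other lectins and scavenger receptors measured, 11 were higher in wild type, 7 in BNP-Tg mice and 5 in both, with none lower. They include the scavenger receptor Msr1 (5.61-fold and at least 3.87-fold) and the fungal-sugar lectin Clec4n, known as dectin-2 (4.78-fold and 2.87-fold). Against the BNP-Tg vehicle array 10 were higher in wild type and 1, the endothelial scavenger receptor Stab2, was lower.

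Genes of classical activation were next. Of 26 measured, 20 were Present on at least 1 array, 15 were higher and 1 lower in wild type, and 8 were higher and 0 lower in BNP-Tg mice, with medians of 1.51 and 0.65 (1.26 in wild type against the BNP-Tg vehicle array, with 12 higher). Cxcl10, a chemokine induced by interferon, was 11.3-fold and 4.82-fold higher. Some markers of each activation state were therefore higher in the same tissue, but Retnla was lower in both genotypes and Mgl2 in wild type. Nos2 stayed undetected while Arg1 was higher. Il12b, Tnf, Il23a, Acod1 and Slc7a11 of the classical list were also Present on no array. Il10, whose product interleukin-10 is a known inducer of Cd163, was below the signal level of the rule on all arrays, at 12.5 and 34.0 in wild type and 7.81 and 18.5 in BNP-Tg mice.

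Genotypes were compared next, under each treatment. With vehicle, 0 of the 10 genes were called higher in BNP-Tg than in wild-type peritoneum (0.957% of all genes were) and 0 lower (0.502%). The background was 0.721% higher and 0.714% lower under quantile normalization, 0.768% and 0.627% under median centring, 0.768% and 0.745% under cyclic loess, and 3.59% and 0.0549% under the deposited scaling. The median of the 10 was 0.21 (0.28 over the 9 detected), beside -0.04 for all genes. Chil3 had the highest value, at least 2.25-fold higher in BNP-Tg mice, but its brighter signal of 17.4 was too dim for the rule. The shared Chil3 and Chil4 probe set gave at least 7.67-fold in the same direction, also from dim signals. Mrc1 (0.49), Folr2 (0.41), Clec10a (0.28), Stab1 (0.13), Mgl2 (0.11), Cd163 (0.09) and Retnla (-0.17) lay within 0.5 of 0, and Arg1 was at 0.55. The deposited scaling, which moved the median of all genes to 0.37, put Arg1 at 0.97, Mrc1 at 0.91, Folr2 at 0.83, Clec10a at 0.70, Stab1 at 0.55, Mgl2 at 0.53 and Cd163 at 0.50, and turned Retnla to 0.24.

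With chlorhexidine, Chil3 was called higher in BNP-Tg mice (0.784% of all genes were higher) and Arg1 lower (0.964% were lower). The background was 1.01% higher and 0.823% lower under quantile normalization, and 1.004% and 0.815% under median centring. Chil3 was 2.29-fold higher, at 332 against 145, and the shared probe set was 2.28-fold higher, at 276 against 121. Of the 15 neutrophil genes measured, 5 were also higher in BNP-Tg mice in this comparison, S100a8 by 4.14-fold and S100a9 by 11.5-fold. Their part in the genotype difference of Chil3 was not tested. Arg1 was 2.36-fold lower, at 99.1 against 233, and its difference of -1.24 stayed between -1.27 and -1.02 over the other scalings and the pseudocount. Mgl2 was 1.99-fold higher in BNP-Tg mice, just short of 2-fold, Cd163 1.59-fold, Clec10a 1.49-fold and Retnla 1.41-fold higher. Mrc1 (0.17) and Folr2 (0.04) were nearly equal between the chlorhexidine arrays, and Stab1 was lower by the difference -0.33. Genes of classical activation lay lower in BNP-Tg mice with chlorhexidine as Arg1 did, with a median of -0.55, 4 called lower and 0 higher. That direction was not particular to them. The other interleukin-4-induced genes had a median of -0.41 (1 lower, 0 higher) and the general macrophage genes -0.22 (0 lower, 0 higher). Resident tissue macrophage genes went the other way, with a median of 0.09 (2 higher, 0 lower).

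**Figure D4:**
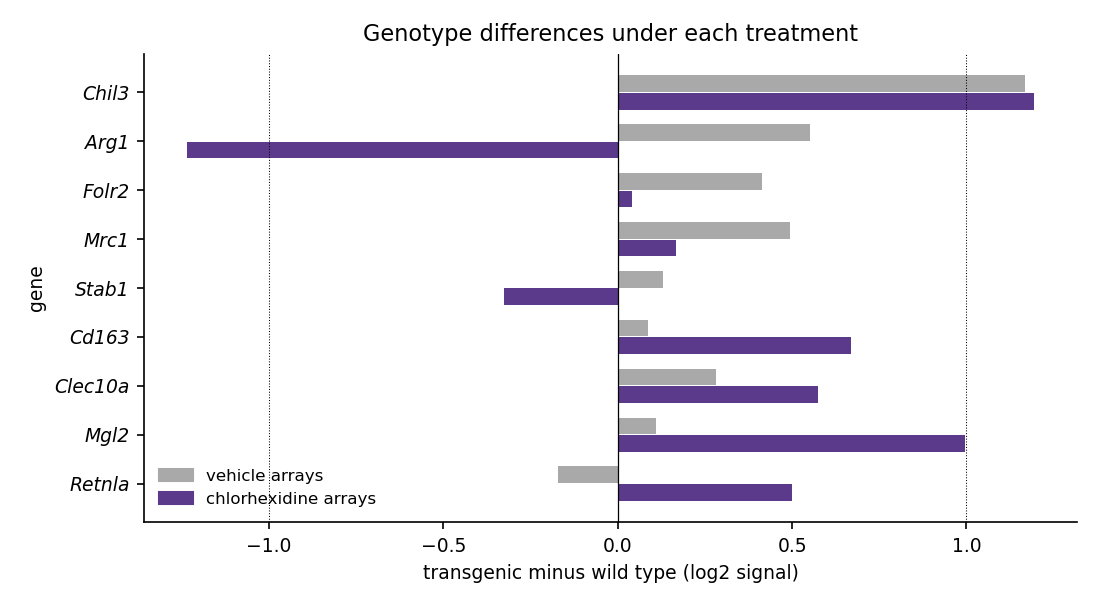
Transgenic minus wild type difference (log2 signal) of the 9 detected genes on the vehicle arrays (grey) and the chlorhexidine arrays (purple), with dotted lines at 2-fold. With chlorhexidine Chil3 lies beyond 2-fold to the right and Arg1 beyond 2-fold to the left, and the grey Chil3 bar rests on a wild-type signal called Absent.

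The chlorhexidine difference itself can be compared between genotypes, as the transgenic difference minus the wild-type one. By that measure 0 of the 10 genes were called higher (2.01% of all genes were) and 1 was lower (2.96% were). The background was 2.92% higher and 2.26% lower under quantile normalization, 2.96% and 2.37% under median centring, 2.78% and 2.35% under cyclic loess, and 0.651% and 10.3% under the deposited scaling. The lower one was Arg1, at -1.79, which lay between -2.24 and -1.25 over the other scalings and the pseudocount. That call depended on the vehicle arrays. With these exchanged, the Arg1 differences were 3.10 in wild type and 2.41 in BNP-Tg mice, less than 2-fold apart. The median of the 10 was 0.16 (0.03 over the 9 detected), beside 0.02 for all genes. For Chil3 the value was 0.03, which turned to -0.43 under the deposited scaling, and it rests on a wild-type vehicle signal called Absent. The shared Chil3 and Chil4 probe set went from a wild-type difference of 5.62, whose vehicle signal was also Absent, to 3.62 in BNP-Tg mice. Mgl2 (0.89), Retnla (0.67), Cd163 (0.58) and Clec10a (0.29, -0.16 under the deposited scaling) had positive values. Mrc1 (-0.33), Folr2 (-0.37) and Stab1 (-0.46) had negative ones. All of these values contain the wild-type vehicle array. Probe sets of 1 gene that were Present on all 4 arrays disagreed with an SD of 0.480 in this measure. Of the genes Present on every array, Arg1, Mgl2, Retnla and Cd163 lay further than that SD from 0, but under the deposited scaling Mgl2 (0.43), Retnla (0.22) and Cd163 (0.13) lay inside it and Stab1 (-0.91), Folr2 (-0.83) and Mrc1 (-0.78) beyond it. Arg1 lay beyond it under both.

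The genes whose pattern over the 4 arrays was most like each of the 10 were sought among the 12754 by the Euclidean distance between log2 signals centred on each gene's mean. Within the list, Cd163 and Clec10a were closest to each other (distance 0.17), then Mrc1 and Folr2 (0.35) and Mrc1 and Stab1 (0.44), while Chil3 and Retnla were 6.37 apart. Outside it, Apbb1ip was closest to Mrc1 (0.03), Sgms2 to Stab1 (0.03) and Ugdh to Folr2 (0.08). Dnajb12 was closest to Clec10a (0.05), Fat3 to Cd163 (0.07) and Usp13 to Mgl2 (0.09). Pappa was closest to Arg1 (0.17) and Hsbp1l1, a dim gene, to Retnla (0.23). Chil3 had no close match, since its nearest gene, Oas1b, lay 0.99 away, and both have a wild-type vehicle signal near or below the limit of detection. With 4 points each, such distances describe these arrays only.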

How the data were processed

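Total RNA of the parietal peritoneum was labelled with biotin and hybridised to 1 Affymetrix array per group, per the labels' protocols. The values deposited by the authors are linear signals, 1 intensity for each of 45101 probe sets, per the file headers. The authors' files also give each probe set a detection p-value and the call made from it (Present, Marginal or Absent). The signal algorithm is not given in the sources used here, nor is its target for scaling, and the raw scanner files were not used here. The 64 control probe sets were left out. Each array was multiplied (by 0.877 to 1.17) to a common 2% trimmed mean, because the trimmed means ranged from 86.8 to 116, a floor of 0.1 was set, and log2 was taken of these deposited intensities. Of 45037 probe sets, 34945 had 1 gene symbol in the platform annotation, and 34741 were updated by Entrez identifier in RefSeq (GRCm38.p6). Genes with several probe sets took the one brightest on average (log2). For a dimmer array without a Present call, the fold used the higher of that array's lowest Present signal and the probe set's own signal.

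With 1 array per group no test was made, so the number of arrays limits the precision. An additive model with 1 residual degree of freedom was possible but was not used. The members and the 23 gene lists were chosen with earlier results of these data known. All members were named. From each list the naming rule picked up to 3 genes by mean chlorhexidine difference and up to 2 by the difference of differences. It also picked the ligands, receptors and enzymes acting on the members. Only some of the genes picked from the lists appear in the text (Ptgs2, Il6, Lep and Cd79a, for example, do not), so those shown are a further selection. Cd209a, Fcna, Prg4, Gata6 and the defining cell type genes listed as Absent were also named after their values were seen. The code that applies the rule of size was tested on simulated data. Alternatives were quantile normalization, median centring, cyclic loess (limma 3.58.1 in R 4.3.3), the deposited scaling, a pseudocount of 32, no filter, Present on all 4 arrays, averaging the probe sets of a gene, plain probe sets only, 1.5-fold and 3-fold thresholds, the other genotype's vehicle array, and values relative to the general macrophage median. The gene lists and Egr2 with the other vehicle array were added after seeing the data. Other work used Python 3.11.15 with pandas 2.3.3 and Biopython 1.88.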

Additional observations from a re-analysis of the deposited data

Results flagged for a closer look

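Egr2, a transcription factor that interleukin-4 induces in macrophages, went in opposite directions in the 2 genotypes when each was set against its own vehicle array. Its signal was 27.0 with vehicle and 138 with chlorhexidine in wild type (5.10-fold higher), and 85.3 and 33.9 in BNP-Tg mice (2.51-fold lower). The difference of the chlorhexidine differences was -3.68, and a second probe set of Egr2 gave -2.29 (1.80 in wild type and -0.48 in BNP-Tg mice). With the vehicle arrays exchanged, which was chosen after seeing the data, the opposite directions were lost: the wild-type difference was 0.69 and no longer passed 2-fold (1.15 for the second probe set), and the BNP-Tg one was 0.33 (0.17). With 1 array per group the difference between genotypes was not tested. None of the 10 genes of the list was opposite in the genotypes in this way.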

How the results depend on the processing

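Averaging probe sets and using plain ones could not move the 90 values of single genes they gave, since each gene has 1 probe set of its own. Of the other recomputed values of single genes, 238 stayed within the spread between probe sets, 50 moved and 2 reversed. The ones counted as reversed were Mrc1 (-0.029) and Stab1 (-0.039) in wild type relative to the general macrophage median, both past the rule in the main setting. Values that were not past the rule also changed sign there but were counted as moved. Examples are Cd163 (0.07 to -1.19) and Clec10a (0.15 to -1.11) in wild type. Such shifts follow from subtracting the same value from every gene of a comparison, namely the general macrophage median. Relative to it, 2 genes were higher and 4 lower in wild type, where 1.22% and 53.3% of all genes were. In BNP-Tg mice 1 was higher and 2 lower, where 0.737% and 32.2% of all genes were. The counts of lower genes were thus not above the share over all genes. With plain probe sets only, 3 genes were higher in wild type, because Folr2 and Stab1 have none. At 3-fold, 3 were higher and 1 lower in wild type, and 0 were higher and 0 lower between the chlorhexidine arrays. At 1.5-fold, 6 were higher and 2 lower in BNP-Tg mice, 3 were higher in BNP-Tg mice between the chlorhexidine arrays, and 2 had a higher chlorhexidine difference in BNP-Tg mice. Between the chlorhexidine arrays 2 genes were higher in BNP-Tg mice under quantile normalization, median centring and cyclic loess, since Mgl2 then passed 2-fold, and 0 when a gene had to be Present on all 4 arrays, which removes Chil3. The difference of differences had 1 higher gene under quantile normalization, 1 under cyclic loess and 1 with no filter. Between the vehicle arrays 1 was higher and 1 lower with no filter. The counts at 3-fold, at 1.5-fold, with no filter and with Present on all 4 arrays are given without the share of all genes. They therefore cannot be set against a background. In wild type the all-gene median difference moved to -0.11 (quantile), -0.18 (median centring) and 0.25 (deposited scaling), and the deposited scaling moved it to -0.20 in BNP-Tg mice and 0.37 between vehicle arrays. Dim signals limit Chil3, Chil4 and Arg1 on the vehicle arrays most.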

Other observations

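Some genes of resident and large peritoneal macrophages were higher in BNP-Tg than in wild-type peritoneum with chlorhexidine, as Chil3 was. Fcna, a ficolin of tissue macrophages, read 235 in wild type and 507 in BNP-Tg mice with chlorhexidine (2.16-fold), and 108 and 176 with vehicle. Vsig4 was 2.01-fold higher, at 148 against 73.8. Of 15 genes of large peritoneal macrophages measured, 3 were higher in BNP-Tg mice with chlorhexidine and 0 lower, but the median of the list was -0.01. Among them Prg4, which encodes the lubricant protein lubricin, was 2.32-fold higher. Gata6, the transcription factor that defines large peritoneal macrophages, had a chlorhexidine difference of 1.61 in wild type and 1.54 in BNP-Tg mice. These differences were not tested.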
